A study of Glycine max with 12 samples.

Results

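The probes described here are those whose signal fell at least 4-fold in soybean roots given nitrate while the signal in nodules of the same treatment stayed within 2-fold of its control. Of 42748 probes on the array that are not controls, 166 met these limits. A member had a mean log2 signal at least 2 lower in nitrate-treated than in control roots, with every nitrate-treated root array below every control root array. It was also marked as well above background by the scanner software on all 3 control root arrays, and its nodule change lay between -1 and 1 on the log2 scale. A nitrate transporter probe, CA852364.1_395, also met the limits and was left out. Because the nitrate changes in roots and in nodules chose these probes, both are given as a description, with no test.

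Soybean (Glycine max, cultivar Nourin No. 2) was inoculated with Bradyrhizobium diazoefficiens USDA110 and grown in a nitrogen-free solution. From 19 days after planting, plants received 5 mM nitrate for 24 h, and control plants stayed in the nitrogen-free solution. Roots and nodules of each treatment made up 4 groups, with 3 arrays each and RNA pooled from 3 plants per array. All plants carried nodules and were of a single cultivar. Root samples were the lower part of the root system, where no nodules were visible, and nodule samples held only nodules of over 3 mm. Descriptions of leghemoglobin or other nodule markers were not used here, so the organ labels were not checked against them.

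Nitrate is both a nitrogen source and a signal for plant cells, and a legume root that finds it invests less in its rhizobial partners. Roots of legumes also make a large set of specialised compounds, among them isoflavonoids and triterpenoid saponins, and carry a set of inducible proteins of defence and wound responses. Suberin and cutin, which are lipid polymers, seal parts of the root surface.

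The signals were scaled to a mean of 2500 on each array, and a signal below is on this scale, where each probe can be set against itself only. On any 1 array, 79.2% to 84.5% of probes were well above background, and none was saturated. In control roots, 33044 probes were well above background on all 3 arrays, and these are called detected in control roots. Of these, 209 (0.632%) met both root limits, and 33 of the 209 changed by less than -1 in nodules and 9 by more than 1. The arrays lay on 3 slides. The 3 nitrate-treated root arrays lay beside control root array 1 only, and control root arrays 2 and 3 beside arrays 1 and 2 of nitrate-treated nodules. In such bulk tissue samples, fewer cells of a type and less RNA per cell cannot be told apart.

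Over the 166 probes, the root change ranged from -5.51 to -2.0, with a median of -2.37. The median over all probes detected in control roots was 0.09. The measured means of 32 of the 166 differed by at least 8-fold and those of 114 by less than 6-fold. Of the 32, 10 were not well above background on any nitrate-treated root array, and the lower bound of the change was under 8-fold for 8 of these. Most members therefore lay near the limit. The median member signal was 438, 361 and 436 on the control root arrays and 78.4, 81.8 and 77.0 on the nitrate-treated root arrays. In nodules it was 108, 80.5 and 80.4 in controls and 85.8, 88.2 and 55.7 after nitrate. The medians of nitrate-treated roots thus lay within the range of the nodule medians. Single members differed more, since 70 of the 166 (42.2%) were within 2-fold of the nodules after nitrate, against 56.1% of all probes detected in control roots.

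**Figure D1:**
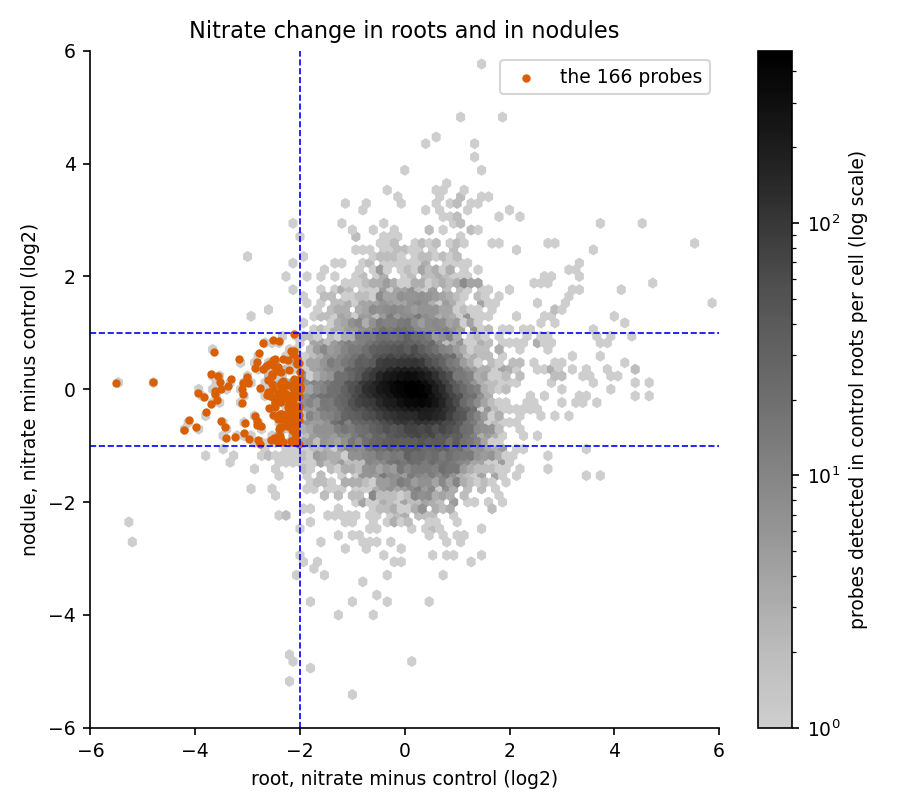
Change with nitrate in roots (x axis, log2) against the change in nodules (y axis, log2). Grey cells count the 33044 probes detected in control roots, on a log scale, orange points are the 166 probes, and dashed lines are the limits of the rule at -2, -1 and 1. The orange points fill the box that the limits define and are densest next to the root limit.

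**Figure D2:**
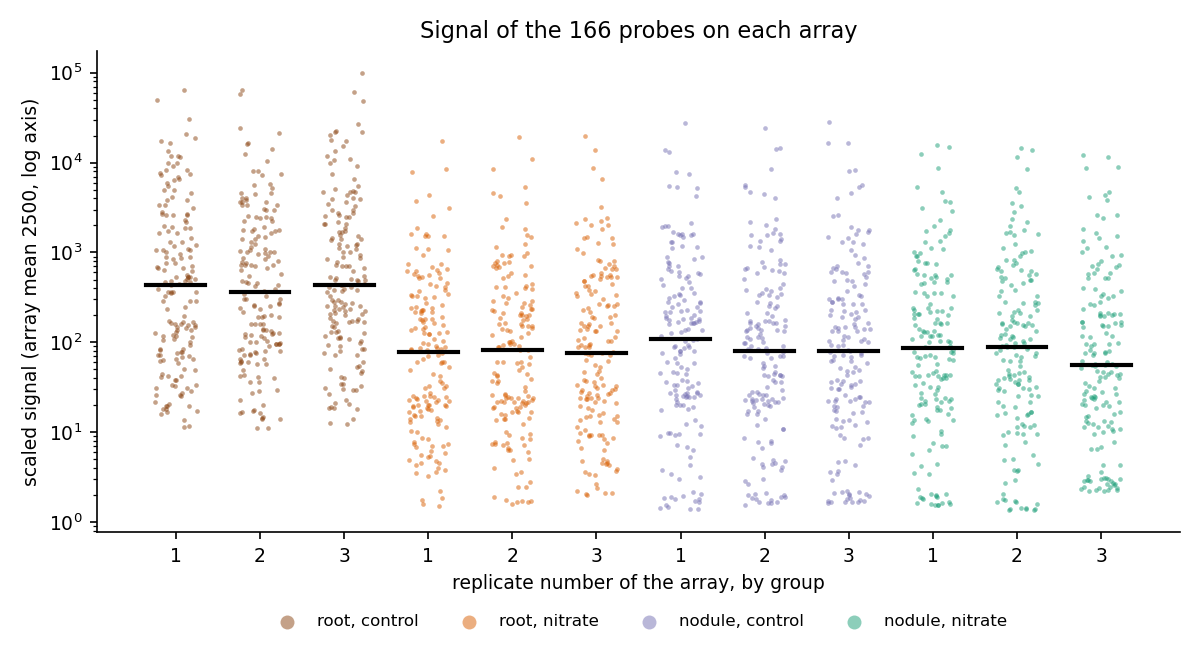
Scaled signal (y axis, log scale, array mean 2500) of the 166 probes on each of the 12 arrays, with a point for each probe and a bar at the median. The medians of the control root arrays lie between 361 and 438, and those of the other 9 arrays between 55.7 and 108.

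The probes just inside the root limit were BI472054.1_250, GMFL01-05-L13-R_184 and GMFL01-19-O02-R_307, at -2.0 each. Those just outside, GMFL01-02-D18-R_359, GMFL01-18-I17-R_460 and BF424530.1_315, had a root change of -1.99 each. At the lower nodule limit, BF424736.1_372 was inside at -0.97 and CO984105.1_577 outside at -1.0. Next to these, CF920680.1_645 and CF922353.1_508 were inside at -0.96 and -0.94, and GMFL01-31-J16-R_381 and BQ629670.1_527 outside at -1.02 each. At the upper nodule limit, BI967869.1_690 was inside at 0.98 and GMFL01-05-B06-R_563 outside at 1.0. The next on either side were CD413476.1_531 at 0.87 and CA784892.1_576 at 0.85, and BI702283.1_228 at 1.32 and AW394583.1_287 at 1.45. The limits thus pass through a continuous range of changes.

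The scanner files name each probe by an accession of its cDNA and give no gene. The study's lists of changed probesets describe 81 of the 166, and 31 of these matched a gene group considered here. Those lists were selected on these same arrays, so a group's direction in them is not independent evidence. The descriptions are those of the most similar sequence known when the array was annotated, often from another species. Among all probes detected in control roots, 5.14% had a root change at or below -1 and 4.4% at or above 1. The study's lists hold probes picked for a change, so high shares are built into them. Of all 2640 described probes detected in control roots, 29.1% had a root change at or below -1 and 33.3% at or above 1.

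Transcription factors made up the largest of these groups, with 8 members, and their median root change was -2.34. BQ080756.1_469 is described as the Arabidopsis ethylene-responsive factor At1g06160, a gene that in Arabidopsis is known as ORA59 and acts in ethylene and jasmonate responses. Its signals were 2587, 1805 and 3474 in control roots and 126, 139 and 257 in nitrate-treated roots. In nodules they were 276, 133 and 223 in controls and 162, 211 and 210 after nitrate. The root change was -3.94 (SE 0.42, n = 3 per group). The nitrate-treated roots came to lie near the nodule arrays, with the array at 126 just below their range and the others within it. The Myb superfamily probe BU080494.1_473 had signals of 898, 1303 and 1689 in control roots and 145, 215 and 338 in nitrate-treated roots. Its nodule signals, from 23.4 to 53.1, were below every root array. Myb proteins regulate many plant pathways, that of the phenylpropanoids among them.

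Other regulators were measured at lower signals. The pea MADS box M8 probe BE821552.1_523 read 61.6, 35.9 and 53.0 in control roots and was not well above background on any other array, nitrate-treated roots included. It was at least 5.69-fold lower after nitrate. For such probes, the bound compares the control mean with whichever is higher on each nitrate-treated array, the probe's own signal or the dimmest signal that still counted as well above background. The zinc finger probe BE611045.1_537 changed by -2.71 (SE 0.11) and read 101, 83.9 and 94.7 in control roots against 14.3, 15.5 and 12.9 after nitrate. The arrays of each root group were close together for this probe, and the groups were far apart. BI967520.1_295 and BI967869.1_690 share the description of a CBF-like protein of soybean. CBF proteins are AP2-domain factors known from cold responses in Arabidopsis. BI967520.1_295 changed by -2.07, and BI967869.1_690, not well above background on any nitrate-treated root array, was at least 2.60-fold lower. The TINY-like AP2 probe CO982707.1_559 changed by -2.06. The NAC-domain probe CO982866.1_646, described as tobacco TERN, changed by -2.17, and 1 of its 3 nitrate-treated root arrays was well above background. Of the 44 transcription factor probes in the study's lists that were detected in control roots, 23 had a root change at or below -1 and 5 at or above 1.

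Enzymes of triterpenoid and phenolic metabolism gave 6 members. A set of 3 probes carries the same description, daidzein 7-O-methyltransferase (D7OMT) of Glycyrrhiza echinata, an enzyme that methylates an isoflavone. GMFL01-12-L06-R_241, the brightest, read 4999, 2972 and 3966 in control roots and 937, 693 and 661 in nitrate-treated roots. Its nodule signals were 883, 668 and 709 in controls and 1090, 1038 and 693 after nitrate. BM188258.1_181 and BE021456.1_355 followed it closely. Their root changes were -2.53 (SE 0.26) and -2.41 (SE 0.31), against -2.37 (SE 0.27) for the first. Their nodule changes were 0.28 and 0.39, and that of the first 0.30. These probes may report a single gene or near-identical copies. The counts for this group are of probes and include each of them, so they are not counts of separate genes.

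The 2 members described as anthocyanin 5-aromatic acyltransferase (5AT), an enzyme that attaches an aromatic acyl group to an anthocyanin, had another pattern. GMFL01-36-N01-R_472 read 1630, 1744 and 1734 in control roots and 263, 407 and 371 in nitrate-treated roots. In nodules it read 1620, 1591 and 1710 in controls and 1730, 1771 and 1459 after nitrate. Control roots and nodules were thus at the same level, and only the nitrate-treated root arrays stood below. BM094527.1_425 had a root change of -2.05 and a nodule change of 0.08 and shared that pattern. Other probes with this description differed: CA853156.1_438 changed by -1.47 in roots, and GMFL01-28-O20-R_417 by 0.24 in roots and -1.96 in nodules.

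BI498434.1_344 is described as soybean beta-amyrin synthase (AMS1), which closes the ring system of beta-amyrin, a precursor of the soyasaponins. It was dim, with signals of 31, 16.4 and 20.8 in control roots and from 1.36 to 3.01 on the other 9 arrays, none of which was well above background. It was at least 2.60-fold lower in nitrate-treated roots. The 4 other probes with the AMS1 description did not share its pattern. GMFL01-26-E16-R_471, BE807137.1_409 and GMFL01-20-C05-R_236 had root changes of 0.90, 0.84 and 0.70, and BE820847.1_401 one of -1.08. All 4 had nodule changes between -1.98 and -1.65. Over this group of enzymes, 12 of 16 probes detected in control roots had a root change at or below -1 and 0 at or above 1.

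Proteins of defence and pathogenesis gave 5 members, and some were among the brightest. BI971083.1_685, chitinase III-A, belongs to a family that cleaves the chitin of fungal walls. It read 49199, 58628 and 60863 in control roots and 8502, 11003 and 13835 in nitrate-treated roots. Its nodule signals were 5175, 5418 and 4532 in controls and 3707, 3536 and 3868 after nitrate. It thus stayed brighter in nitrate-treated roots than in any nodule sample. CO985321.1_478 is described as a defence-related protein with an SCP domain, a family that includes the pathogenesis-related PR-1 proteins. It read 30283, 21288 and 48644 in control roots and 4327, 5296 and 8697 after nitrate. In nodules it read 27394, 24275 and 28152 in controls and 15762, 14354 and 12255 after nitrate. Its nodule change of -0.92 (SE 0.12) lay just inside the limit, and the nodule groups did not overlap. For this probe, the label of a root-only change rests on the limit. Another probe with the SCP domain description, BU081437.1_451, changed by 0.11 in roots and 1.39 in nodules.

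The other defence probes were a class V chitinase (BM085021.1_502), with a root change of -2.97 (SE 0.32) and a nodule change of -0.88, and BE820969.1_465. The latter is described as a disease resistance response protein, of a dirigent-like family first described in pea. It read 7343, 10301 and 10978 in control roots and 1103, 2343 and 2119 after nitrate. Another probe with its description, CO980442.1_672, changed by -0.55 in roots and -1.41 in nodules. GMFL01-05-L13-R_184, similar to the hypersensitivity-related gene 201 of tobacco, changed by -2.0. Of 19 defence probes in the study's lists that were detected in control roots, 13 had a root change at or below -1 and 1 at or above 1.

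Enzymes and proteins of redox and metal balance gave 3 members. GMFL01-28-N08-F_502 is soybean glutathione S-transferase 5 (GST5), of a family that joins glutathione to reactive or foreign compounds. It read 148, 160 and 171 in control roots and 10.3, 21.9 and 9.85 in nitrate-treated roots. Nodules stayed between 139.5 and 177 under both treatments. Control roots and all 6 nodule arrays were thus alike, and the nitrate-treated roots were low. BI969658.1_480, a secretory peroxidase first described in Stylosanthes humilis (px12), read 292, 195 and 246 in control roots and 31, 39.1 and 16.2 after nitrate. Its nodule arrays, from 12.2 to 39.5, covered the range of the nitrate-treated roots. GMFL01-14-B23-F_486 is described as ferritin SferH-2, which stores iron. It read 2673, 2248 and 2071 in control roots and 417, 557 and 586 after nitrate. In nodules it read 292, 161 and 104 in controls and 103, 88.3 and 81.1 after nitrate. A second SferH-2 probe, GMFL01-03-E24-R_394, changed by -2.47 in roots and by -1.14 in nodules, which put it outside the nodule limit. The 2 ferritin probes differed little in either organ, and the limit fell between them. Of 6 glutathione S-transferase probes in the study's lists, 3 had a root change at or below -1 and 2 at or above 1, and of 11 peroxidase probes 7 and 1.

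Enzymes of lipids and of surface polymers gave 5 members. GMFL01-39-J08-R_457, a calcium-independent phospholipase A2, belongs to enzymes that release fatty acids from membrane lipids. It read 2586, 2402 and 2541 in control roots and 274, 271 and 351 after nitrate, a change of -3.08 (SE 0.13). In nodules it read 1315, 1069 and 1477 in controls and 1357, 1662 and 1148 after nitrate. The nitrate-treated roots were the lowest samples for this probe. Another probe with this description, BI315627.1_348, changed by 0.46 in roots and -2.65 in nodules. CO985448.1_708 is a probable glycerol-3-phosphate acyltransferase 8 (GPAT8), a relative of the Arabidopsis enzymes that make cutin. It read 1853, 1424 and 1429 in control roots and 250, 262 and 507 after nitrate. GMFL01-29-B18-R_355 is described as fiddlehead-like of Tropaeolum majus, and in Arabidopsis fiddlehead belongs to the enzymes that lengthen fatty acids. It read 329, 252 and 297 in control roots and 59.9, 59.3 and 105 after nitrate, and at most 9.32 in nodules, where 1 of 6 arrays was well above background. CX548885.1_759 and CO982764.1_659, described as an arylacetamide deacetylase and a hydrolase or acyltransferase, changed by -2.11 and -2.41. CO982764.1_659 was well above background on 1 of 3 nitrate-treated root arrays. Of the 20 lipid probes in the study's lists that were detected in control roots, 17 had a root change at or below -1 and 0 at or above 1.

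Proteases and transporters gave 2 members each. Of 19 protease probes in the study's lists that were detected in control roots, 13 had a root change at or below -1 and 4 at or above 1. Of 60 transporter probes, 29 were at or below -1 and 16 at or above 1. GMFL01-19-O02-R_307 is vacuolar processing enzyme 2 (VPE2), a cysteine protease that matures proteins in the vacuole. It was the brightest member, with signals of 64937, 64956 and 100157 in control roots and 17258, 19372 and 19555 after nitrate. Its nodule signals stayed between 7956 and 8728 on all 6 arrays. The other VPE2 probes, CA784046.1_552 and GMFL01-11-E10-F_437, had root changes of -1.5 and -1.18. AW307037.1_321, similar to a putative protease, was not well above background in nitrate-treated roots and was at least 2.62-fold lower. BE806216.1_3, described as similar to a nodulin-like protein, read 5543, 4579 and 6556 in control roots and 584, 290 and 251 after nitrate. In nodules it read 1175, 1189 and 1062 in controls and 917, 576 and 706 after nitrate, so 2 of the 3 nitrate-treated root arrays lay below every nodule array. The ABC transporter probe GMFL01-21-E14-R_435 changed by -2.20. Of 4 asparaginase probes detected in control roots, 3 had a root change at or below -1 and 0 were members.

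**Figure D3:**
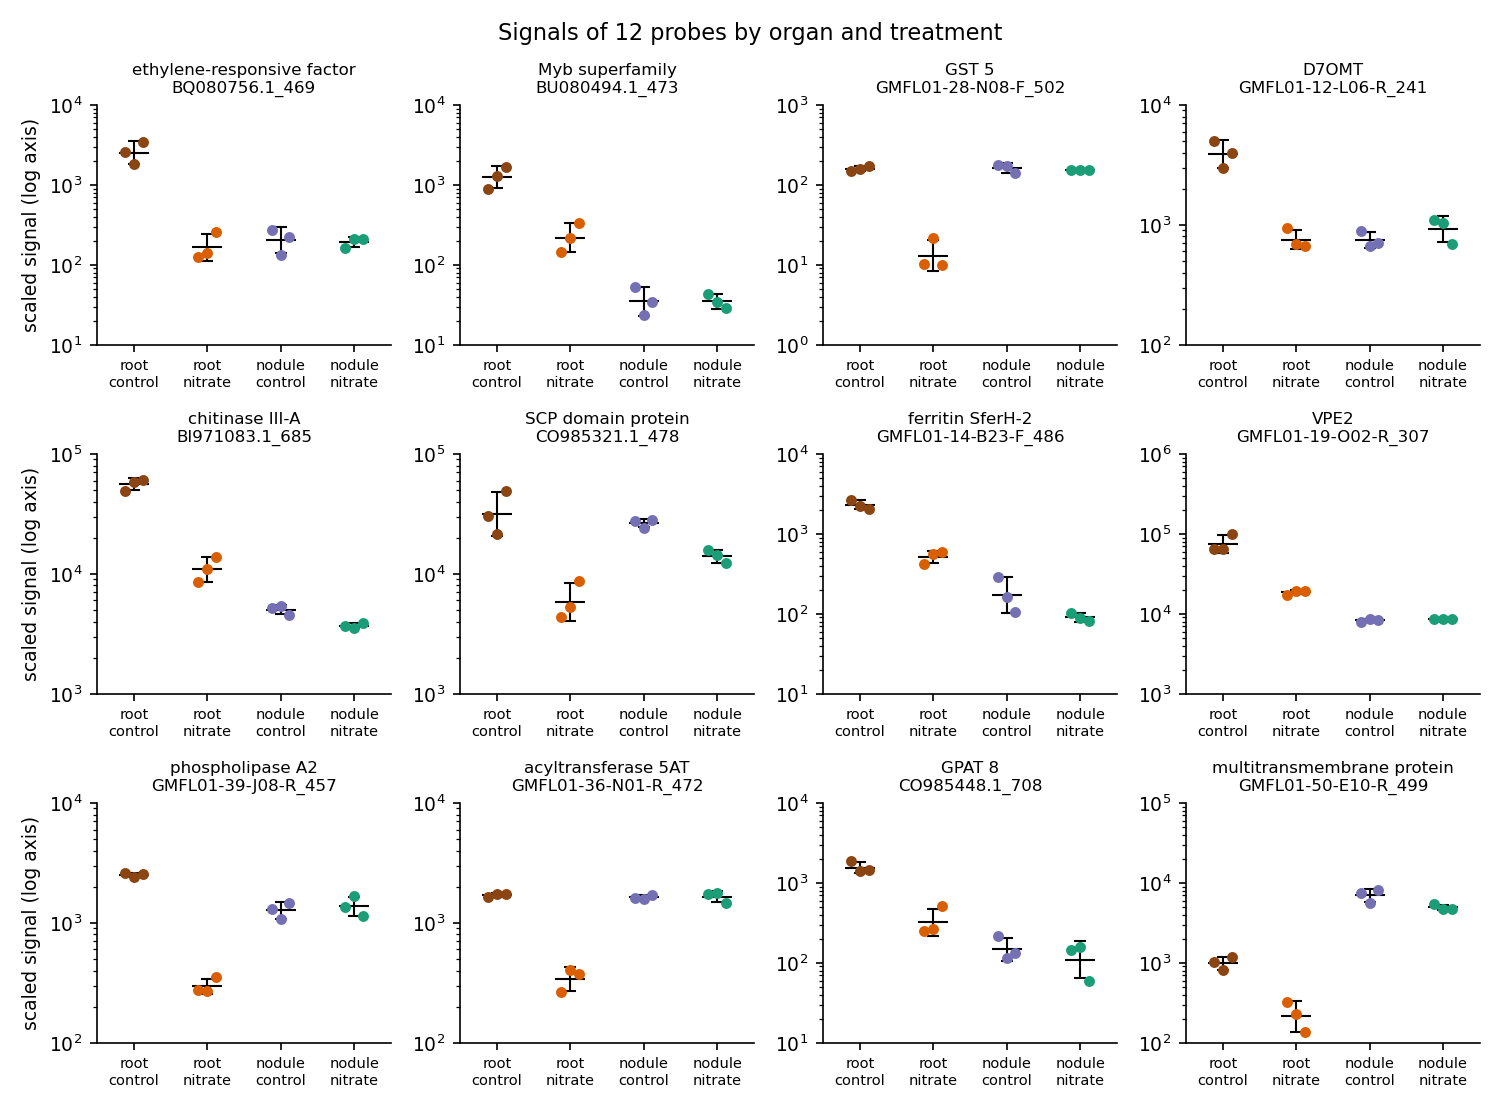
Scaled signal (y axis, log scale) of 12 of the probes on each array, by organ and treatment. Coloured points are arrays, and black bars are the mean and SD of the log2 values (n = 3 per group). The nitrate-treated roots reach the nodule level for the ethylene-responsive factor and D7OMT, stay above it for chitinase III-A and VPE2, and fall below it for GST5 and 5AT.

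Several of the 10 largest root changes belong to probes with no gene name. CO984163.1_298 read 131, 99.9 and 173 in control roots and at most 4.42 on any other array. BQ629448.1_370 read 154, 97.2 and 230 in control roots and at most 7.13 elsewhere. Neither was well above background outside control roots, and they were at least 15.5-fold and 17.9-fold lower after nitrate. AW349250.1_725 read 17313, 16204 and 21969 in control roots and 1522, 927 and 673 after nitrate. In nodules it read 4282, 4464 and 4068 in controls and 3610, 1969 and 2433 after nitrate, so it was lower in nitrate-treated roots than in any nodule sample. BE660770.1_567 read 18675, 7554 and 26697 in control roots and 752, 767 and 1235 after nitrate, against at most 51.8 in nodules. AW185123.1_370, GMFL01-09-P16-R_246 and CO980415.1_715 changed by -3.82, -3.80 and -3.69 with SE from 0.64 to 0.65. For all 4 of these last probes, control root array 2 was the lowest of the control arrays, as it was for 70.1% of all probes detected in control roots.

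For some descriptions without a gene name, more than 1 probe was a member. BI967872.1_165, AI938280.1_452 and BQ611779.1_444, which match a single Medicago truncatula clone, had root changes of -3.24, -2.39 and -2.37. Their nodule changes were -0.85, -0.87 and -0.43. BU764638.1_344 and GMFL01-09-C02-F_546, which match another clone, changed by -2.32 and -2.22 in roots. For this last pair, all nitrate-treated nodule arrays lay above all control nodule arrays. Other shared descriptions held probes that differed. CD395801.1_588 changed by -2.03 in roots, and BM107901.1_412, with the same maize clone description, by 3.76 from control signals of at most 2.04 that were below background. CD398728.1_532 changed by -2.26 in roots, and CX701355.1_832, which matches the same Lotus clone, by 1.26. BU577527.1_405 changed by -2.1 in roots, and GMFL01-23-A11-R_179, which matches the same Medicago clone, by -1.0.

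Whether the probes were more abundant in roots or in nodules was tested with a contrast of its own. The organ difference was the mean of both root groups minus the mean of both nodule groups, in a fit of all 12 arrays with limma. With equal groups, this contrast is orthogonal to the nitrate contrasts that chose the members. The rule did require detection in control roots, so the members are read against probes detected there. A call needed a Benjamini-Hochberg adjusted p under 0.05 over 36425 probes and a difference above 2-fold.

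Of the 166 probes, 99 (59.6%) were called higher in roots, against 22.4% of the probes detected in control roots. Another 24 (14.5%) were called higher in nodules, against 21.7%. The median organ difference of the members was 1.48, and that of the detected probes -0.08. Of the 99, 62 were well above background on all nodule arrays and 16 on none, and for 8 of these 16 the lower bound of the difference was under 2-fold. A nitrate change of at least 4-fold in roots itself moves the average of the root groups. A probe whose control roots match the nodules is then called higher in nodules, and one whose nitrate-treated roots match them is called higher in roots. The same order in both treatments was therefore counted too, as a description, because it uses the root values that chose the members. By the rule, root minus nodule fell with nitrate in every member, which need not hold for the other probes detected in control roots. Of the 166, 51 (30.7%) were over 2-fold higher in roots with and without nitrate, against 17.4% of the probes detected in control roots. In 13 (7.83%) the roots were over 2-fold lower in both, against 16.4%. Over all members, 75.3% were well above background on all 6 nodule arrays and 9.64% on none, where 94.8% and 1.65% of the detected probes were. Slide and organ overlap in these arrays. With the slide as a fixed block, 74 members were called higher in roots and 26 higher in nodules. In that fit, 6449 and 9557 of the 33037 probes detected in control roots were.

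**Figure D4:**
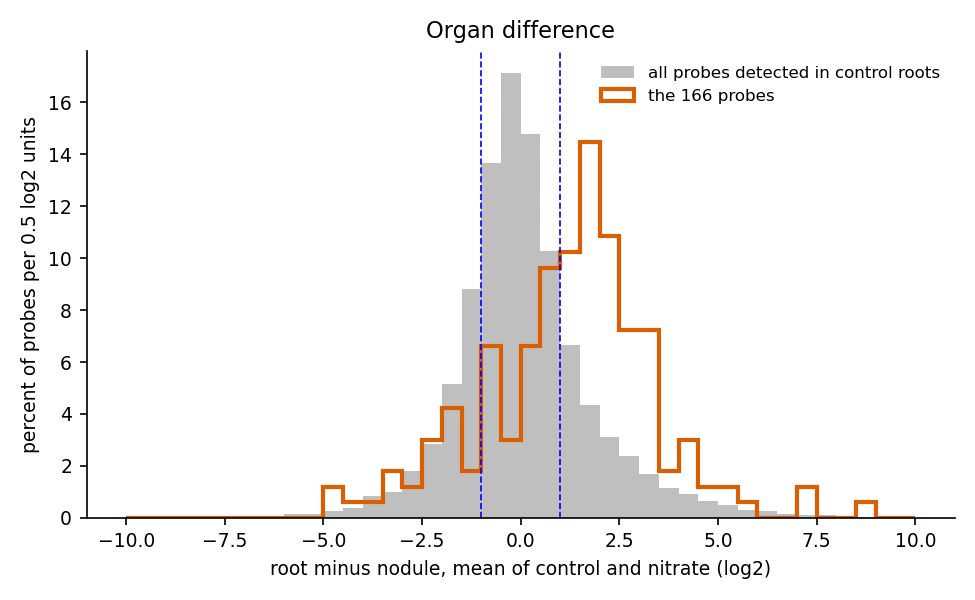
Organ difference (x axis, log2 of root over nodule, averaged over control and nitrate) of the 166 probes (orange line) and of all probes detected in control roots (grey bars), as percent of probes in each step of 0.5. Dashed lines mark a 2-fold difference, and the medians are 1.48 and -0.08.

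Of the 8 transcription factor members, 7 were called higher in roots, with BE611045.1_537 as the exception (0.27, limma adjusted p = 0.21). The Myb probe BU080494.1_473 was higher in roots than nodules by 5.17 in controls and 2.66 after nitrate. The ethylene-responsive factor BQ080756.1_469 was higher by 3.65 in controls, with a difference of -0.22 after nitrate. The D7OMT probes had the second pattern, with differences of 2.38 to 2.66 in controls and of -0.29 to -0.15 after nitrate. For the ethylene-responsive factor and D7OMT, the calls as higher in roots therefore restate the nitrate change that chose them. The MADS box probe BE821552.1_523 was well above background only in control roots, so its call rests on the group in which the rule required detection. Chitinase III-A was higher in roots by 2.52 (SE 0.13, limma adjusted p = 1.2e-08) and VPE2 by 2.15 (SE 0.12, limma adjusted p = 2.6e-08). Ferritin SferH-2 was higher in roots by 3.14 and GPAT8 by 2.47. For these 4 probes the roots were higher in both treatments. The GST5 probe GMFL01-28-N08-F_502 had a root minus nodule difference of -0.03 in controls and -3.56 after nitrate, and the 5AT probe GMFL01-36-N01-R_472 differences of 0.05 and -2.27. The second 5AT probe, BM094527.1_425, had differences of 0.06 and -2.07. Their calls as higher in nodules therefore restate the nitrate change that chose them. The organ difference of the SCP domain probe CO985321.1_478 was -0.51 and that of the phospholipase A2 probe GMFL01-39-J08-R_457 was -0.62, neither past 2-fold. Neither transporter member was called.

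The 3 highest organ differences belonged to unnamed probes. CX548488.1_608 read 6373, 1524 and 3651 in control roots and 213, 202 and 531 in nitrate-treated roots, and was not well above background on any nodule array. It was at least 121-fold higher in roots (limma adjusted p = 1.7e-09). BE660770.1_567 was higher by 7.15 (SE 0.37, limma adjusted p = 1.7e-08) and CA852793.1_457 by 7.05 (SE 0.56, limma adjusted p = 5.2e-07). CA852793.1_457 was well above background on 2 of the 6 nodule arrays. BE660770.1_567 was well above background on all 6 nodule arrays, at 14.6 to 51.8. All 3 probes read above 200 in nitrate-treated roots.

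At the other end, BU765374.1_200 had an organ difference of -4.98 (SE 0.24, limma adjusted p = 8.9e-09). It read 84.1, 60.2 and 45.4 in control roots, then 22.4, 16.8 and 8.09 after nitrate, and from 741 to 1401 in nodules. CO984780.1_674 (-4.52, SE 0.15) read 31.1, 22.8 and 19.1 in control roots and was not well above background in nitrate-treated roots, where it was at least 2.83-fold lower. Its nodule signals were 139.95, 99 and 135 in controls and 223, 195 and 168 after nitrate. BI700311.1_212 (-4.49, SE 0.45) read 16.7, 101 and 165 in control roots, at most 8.33 in nitrate-treated roots and from 381 to 518 in nodules. All 3 were lower in roots than in nodules in both treatments. The probe GMFL01-50-E10-R_499, described as a multitransmembrane protein and named here after its values were seen, was of the same kind. It read 1017, 801 and 1167 in control roots, then 319.97, 228 and 134 after nitrate, and from 4735 to 8055 in nodules.

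The position of the roots relative to the nodules changed with the treatment, as a description that shares its arrays with the rule. The median difference of root minus nodule was 2.57 between control groups and 0.21 between nitrate-treated groups, and over all detected probes -0.17 and 0.02. Beside the 51 probes that were over 2-fold higher in roots in both treatments, 67 were over 2-fold higher in control roots and within 2-fold after nitrate. A further 25 were within 2-fold in the controls and over 2-fold lower in roots after nitrate. Beside the 13 that were lower in both, 7 went from over 2-fold higher to over 2-fold lower, and the other 3 followed none of these patterns.

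Nitrate-treated roots were at or near background for some members. On the nitrate-treated root arrays, 132 of the 166 were well above background on all 3, 4 on 2, 6 on 1 and 24 on none. Of the 24, 12 were also not well above background on any nodule array, and 6 were well above background on all of them. For these 24 the root change is known only as a lower bound, between 1.57-fold and 17.9-fold.

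The nodule changes of the members were small by selection, with a median of -0.13. The median was -0.06 over all detected probes whose nodule change lay within the same limits. Changes within 0.5 of zero were seen for 104 members, and 102 were below 0. All nitrate-treated nodule arrays were below all control nodule arrays for 36 members and above them for 13. Of the detected probes within the same nodule limits, 36.3% and 23.0% were. The groups overlapped for 117 members.

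The control root arrays differed from each other more for the members than for other probes. The median SD in control roots was 0.51 for the members and 0.40 for all detected probes. In control nodules, whose spread the rule did not use, the medians were 0.23 and 0.08. The members were also dimmer, with a median control root signal of 390 against 561 for all detected probes. Whether the dimmer signals account for the wider spread was not tested. The control arrays spanned less than 2-fold for 83 members and more than 4-fold for 23. None of these 23 had a description. The control arrays spanned a median of 0.59 on the log2 scale in described members and 1.61 in the others. Of the 23, control array 1 was the lowest for 15, array 2 for 3 and array 3 for 5. Over all detected probes, array 1 was the lowest for 17.9%, array 2 for 70.1% and array 3 for 11.9%. Against control array 1 alone, which shared the slide of the nitrate-treated roots, the median change was -2.38, with 125 members at or below -2 and 10 above -1. Against arrays 2 and 3, on the other slide, the medians were -2.30 and -2.67, with 116 and 139 at or below -2.

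The 10 members whose change within the slide was above -1 included AW200782.1_425, which read 41.1, 268 and 279 in control roots and 32.4, 37.1 and 35.8 after nitrate. CA820619.1_261 read 173, 1235 and 1390.5 in control roots and 130.5, 146 and 151 after nitrate, and BF596479.1_337 read 237, 1503 and 1241 and then 216, 182 and 154. These 3 were named after their values were seen. In each, control array 1 was close to the nitrate-treated roots, and the difference lay in control arrays 2 and 3. Whether the slide or the plants set array 1 apart for these probes cannot be told apart. Among the same-numbered pairs of a control and a nitrate-treated root array, 125, 118 and 131 members were at or below -2, and 64 were so in all 3 pairs.

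**Figure D5:**
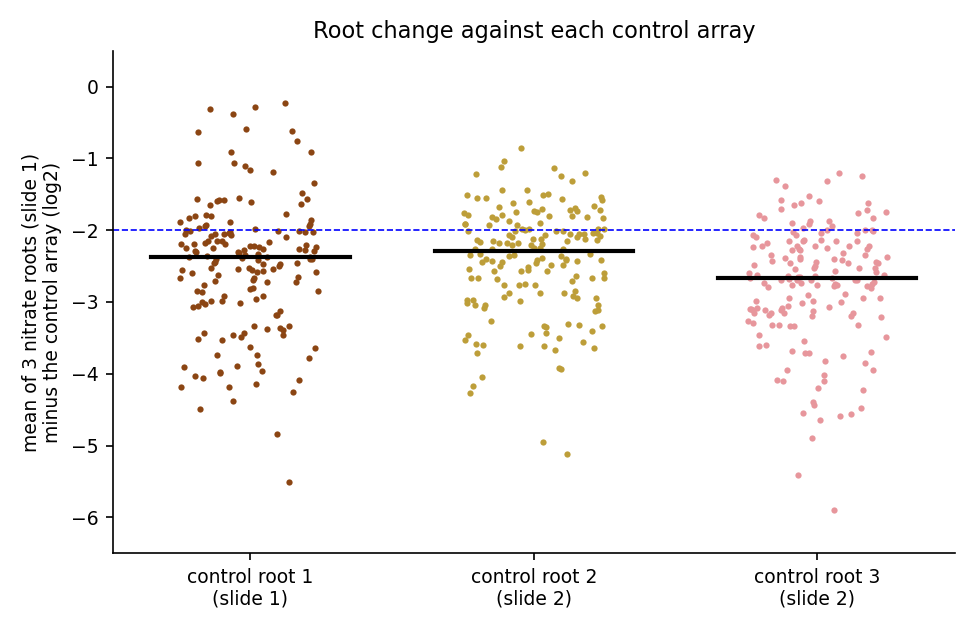
Mean log2 signal of the 3 nitrate-treated root arrays minus that of each control root array (y axis), with a point for each of the 166 probes and a bar at the median. The dashed line is the root limit of -2. The medians are -2.38, -2.30 and -2.67, and 10 probes lie above -1 against control array 1.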

How the data were processed

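RNA from 12 samples was labelled with Cy3 and hybridized to Agilent soybean 44K arrays. The intensity values that the authors deposited are Feature Extraction processed signals, adjusted for background within each array. The file headers name version 10.5.1.1 and the submitters' processing notes 9.5.1. All 529980 values of the series table equalled the scanner files and were not used further. Median spot and background intensities, also deposited, served in an alternative. Each array's 42748 probes were scaled to a mean of 2500, as in the study's methods, by factors of 0.544 to 0.922, then log2 transformed. Groups and replicate numbers came from the sample titles, although 1 control root sample, numbered 1 in its title, has a 2 in another field.

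The organ difference was fitted with limma 3.58.1 (lmFit, eBayes) in R 4.3.3, without 106 spots marked as outliers, over probes that at least 1 group showed well above background on each array. It was tested on simulated data. Other steps ran in Python 3.11.15 (pandas 2.3.3, scipy 1.17.1, numpy 2.4.6, matplotlib 3.10.9). SE of a nitrate change is from the SDs of its groups. With 3 arrays per group, the number of arrays limits the precision.

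Control and nitrate-treated root arrays of the same number deviated together (r = 0.28, 0.41 and 0.62), and nodule arrays did not (r from 0.02 to 0.13). Correlations between arrays of different numbers are not given here. Whether the numbers pair the root arrays is therefore not settled, and no label states it. Roots and nodules came from the same plants, and it is not stated whether equal numbers mark equal pools.

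Named probes were the 10 largest root changes, members matching a gene group or sharing a description, those next to the limits, and the 3 highest and lowest organ differences. Members and lists were chosen with earlier results of these data known. Of the probes' accessions, 0 matched the reference gene table, so descriptions came from the study's supplementary lists, whose fold changes and p-values were not used. Probe sequences, coordinates and the metabolome were not analysed here.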

Additional observations from a re-analysis of the deposited data

Results flagged for a closer look

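In 13 of the 166 probes, every nitrate-treated nodule array lay above every control nodule array, while the root arrays moved the opposite way by the rule. The difference between organs was not tested, because the rule used both changes. The nodule changes on the log2 scale were 0.66 for CO984780.1_674, 0.38 for BE474036.1_368, 0.65 for CD401023.1_586, 0.42 for AW156631.1_249 and 0.87 for CD413476.1_531. They were 0.41 for BG352400.1_294, 0.53 for GMFL01-01-F02-R_488, 0.55 for BU764638.1_344, 0.53 for GMFL01-09-C02-F_546 and 0.55 for BF596479.1_337. They were 0.44 for AW200782.1_425, 0.46 for AW349563.1_425 and 0.062 for VPE2 (GMFL01-19-O02-R_307). Some of these changes lay near background. CD413476.1_531 was well above background on 0 control and 1 nitrate-treated nodule array, BG352400.1_294 on 1 and 2, and AW156631.1_249 on 2 and 2. Of all detected probes within the nodule limits, 23.0% had this order of nodule arrays. AW156631.1_249, BE474036.1_368, BF596479.1_337 and AW200782.1_425 are among the 23 probes whose control root arrays spanned more than 4-fold.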

How the results depend on the processing

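The number of probes that met the limits depended on the processing. It was 74 after normexp background correction with an offset of 50, which compresses low signals. That setting kept 57 of the 77 members with a control root signal over 500 and 6 of the other 89. It was 366 with only the control root array on the slide of the nitrate-treated roots, of which 125 were members. Leaving out single arrays gave 150 to 303, the highest without control root array 1, and 74 members met the limits in every such run. With 75th percentile scaling it was 190, with quantile normalization 174, and without the filter on dim probes 203. With the replicate block, meaning every same-numbered root pair at or below -2, it was 64. Members called higher in roots or in nodules numbered 99 and 24 under the replicate block, and 97 and 24 with organs of the same treatment and number as a random block, an alternative chosen after seeing the data. Leaving out single arrays gave 94 to 102 and 23 to 26. In the run with nitrate-treated arrays alone, 143 members were tested, and 38 were called higher in roots and 44 in nodules. Of the 32838 tested probes detected in control roots, 7692 and 6504 were. With control arrays alone, 120 and 10 of the members were called, against 7380 and 8502 of 33040 such probes. Both runs use root arrays that chose the members. The study used Student's t-test for nitrate against control. Applied here to all root against all nodule arrays and adjusted, that test called 72 and 19 members. In that test the root change fixed by the rule counts as spread within roots, which lowers the counts. Of 594 alternative root changes of 54 named probes, 37 moved by more than the spread between replicates, and since the rule kept the root arrays apart, leaving 1 out could not turn a sign. Of 285 alternative organ differences for 15 named probes, 1 fell below 2-fold, AMS1 at 0.66 after normexp. That tally leaves out the runs with control arrays alone, with nitrate-treated arrays alone, without the filter on dim probes and by the t-test. The counts of calls given above moved most with nitrate-treated arrays alone.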
